A study of Cervus nippon with 12 samples.

Results

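The miR-17 to miR-92 names of antler cells were followed across chondrogenic induction and in chondrocytes. The members were all names in the deposited tables that read bta-miR-17, 18, 19, 20 or 92 with any letter or arm suffix, and 10 of the 545 listed names met this rule. They were miR-17-5p, miR-17-3p, miR-18a, miR-18b, miR-19a, miR-19b, miR-20a, miR-20b, miR-92a and miR-92b. The small RNA came from cultured cells of wild-type sika deer antler, a fast-growing bony organ that lengthens through cartilage at its tip. Reserve mesenchyme cells (RMCs), the mesenchymal stem cells of the growth centre, were sampled at the start of induction (day 0, CP_0) and again after 7 (CP_7) and 14 days (CP_14) as pellets in chondrogenic medium. Antler chondrocytes (CC) were the remaining group, and each group had 3 libraries, which the study calls biological replicates. The labels do not tie libraries to animals, so p-values measure the spread between these libraries. The donors were adult male deer, and the labels name no transgene or other treatment.

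The mammalian miR-17 to miR-92a cluster is a single primary transcript that is cut into miR-17, miR-18a, miR-19a, miR-20a, miR-19b and miR-92a. It is known as an oncogenic cluster that MYC and E2F factors switch on and that supports proliferation and survival, and its loss in development affects the skeleton. A related X-linked cluster carries miR-106a, miR-18b, miR-20b, copies of miR-19b and miR-92a, and miR-363, and another cluster carries miR-106b, miR-93 and miR-25. By the seed, the stretch of bases near the 5′ end that pairs with targets, miR-17-5p and miR-20a form one family with miR-93 and the miR-106 names, miR-18a pairs with miR-18b and miR-19a with miR-19b, and miR-92a and miR-92b go with miR-25 and miR-363. miR-92b is made from its own gene outside these clusters. Names within a family differ by few bases, and since the way shared reads were assigned is not given in the sources used here, reads of close names such as miR-20a and miR-20b or miR-19a and miR-19b may not be fully separated.

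Each deposited value was the number of reads on a name per 1000000 reads on all listed names (RPM), and the reads behind the values could be recovered. The RMC libraries of day 0 held 2973442 to 4097304 reads, those of day 7 held 769655, 1032029 and 539455, those of day 14 held 2791559 to 3864900, and the CC libraries 9714090 to 10256572. Intervals and limits given from these reads cover counting error only. miR-21-5p alone took 23.2% ± 1.6 (SD, n = 3) of the reads in CP_7 and 75.2% ± 2.0 in CC, so the RPM of every other name was also set by how much was left. Composition factors (TMM, the trimmed mean of M values) were therefore applied before testing. Levels of miR-20a, miR-17-5p, miR-18a, miR-92a and miR-17-3p are given on both scales, and those of other names and markers mainly as RPM. The cartilage miRNA miR-140 was present in all 4 groups, at 8831 to 10341 RPM at day 0 and 9769 to 11013 RPM in chondrocytes. On the TMM scale miR-140 was at 10756 ± 417 at day 0, 5100 ± 312 at day 7, 9818 ± 199 at day 14 and 17000 ± 725 in chondrocytes (SD, n = 3). Of the 3 red blood cell miRNAs, miR-451 and miR-486 split the libraries, while miR-144 had 0 to 2 reads in each and was at 0 in CP_0 replicate 3 and all CP_14 libraries. Summed over the 3 names they had 11.8 to 4192 RPM at day 0, 22.1 to 145 at day 7, 3486 to 5167 at day 14 and 1387 to 1460 in chondrocytes, and within CP_0 only replicate 3 was high. CP_0 replicate 3 stood apart from replicates 1 and 2 in this way. The fits of miR-92a against CP_0 and its ratio to miR-20a are given with and without this library. The shares of reads and the likeness to other names are given only with it.

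The 10 names together took 0.116% ± 0.016 of all reads at day 0, 0.172% ± 0.0042 at day 7, 0.106% ± 0.0059 at day 14 and 0.138% ± 0.0016 in chondrocytes (SD, n = 3). When the reads of miR-21-5p were not counted, the shares were 0.292%, 0.224%, 0.206% and 0.559% in the same order, so the group with the highest share went from CP_7 to CC. Over the 12 libraries miR-92a held 46.4% of the members' reads, miR-20a 34.2%, miR-17-5p 10.5%, miR-19b 5.67% and miR-18a 1.60%. These shares are of reads without division by length. The make-up of the members' reads differed between groups. miR-92a held 39.9% to 56.8% of the members' reads at day 0, 63.2% to 68.8% at day 7, 58.8% to 75.02% at day 14 and 37.1% to 40.7% in chondrocytes. miR-20a held 28.0% to 39.9%, 19.5% to 25.2%, 15.1% to 24.1% and 37.5% to 40.3% in the same order.

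**Figure D1:**
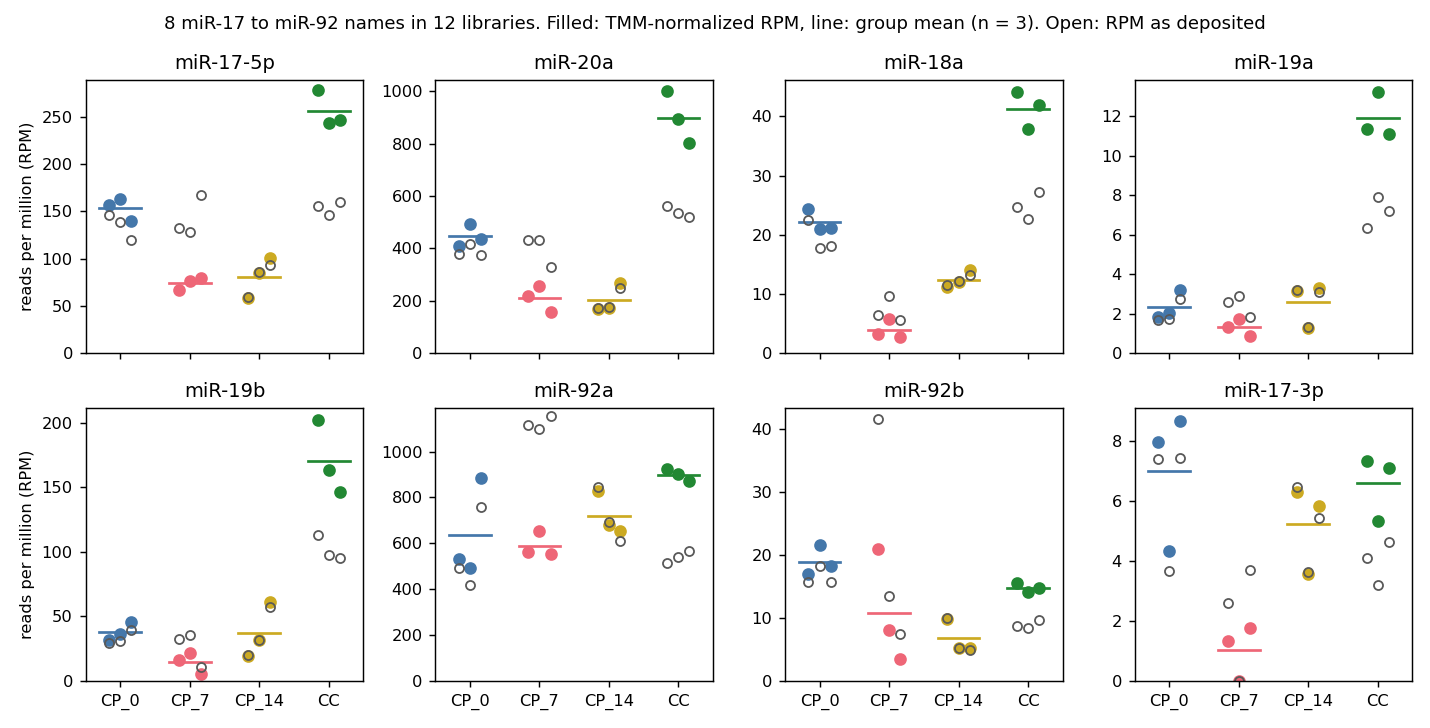
RPM of 8 names in each of the 12 libraries, by group, with TMM-normalized values as filled points, their group mean as a line (n = 3) and the deposited RPM as open points. On the TMM scale the 3 CC libraries of miR-17-5p, miR-20a, miR-18a, miR-19a and miR-19b lie above the libraries of every other group, whereas miR-92a in CC (870.4 to 922) overlaps CP_0 (492 to 886).

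miR-20a, a member of the family that represses cell cycle inhibitors, was the most abundant name of the miR-17 seed. Its deposited level was 379, 417 and 374 RPM at day 0, 431, 433 and 328 RPM at day 7, 171, 178 and 250.2 RPM at day 14 and 559.9, 535 and 521 RPM in chondrocytes. CP_14 was below and CC above every library of the other groups, while CP_0 and CP_7 overlapped. On the TMM scale miR-20a stood at 446 ± 42.6 at day 0, 211 ± 50.5 at day 7, 202.6 ± 56.4 at day 14 and 899 ± 99.9 in chondrocytes (SD, n = 3). CC was highest, CP_0 followed, and CP_7 and CP_14 did not differ beyond their spread. miR-17-5p, which shares the seed and the transcript of miR-20a, gave the same picture. It was at 146, 138 and 120.2 RPM at day 0, 132.5, 128 and 167 RPM at day 7, 59.8, 86.3 and 93.7 RPM at day 14 and 156, 146 and 160.2 RPM in chondrocytes. After TMM normalization these were 154 ± 11.98, 74.2 ± 6.55, 81.0 ± 21.0 and 256 ± 19.4, so that day 7 and day 14 overlapped below day 0, and chondrocytes were highest. In RPM, by contrast, miR-17-5p overlapped between CC, CP_0 and CP_7.

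miR-18a, whose seed differs slightly from that of miR-17, showed the lowest level at day 7. It had 22.5, 17.8 and 18.1 RPM at day 0, 6.50, 9.69 and 5.56 RPM at day 7, 11.5, 12.2 and 13.2 RPM at day 14 and 24.7, 22.6 and 27.3 RPM in chondrocytes. No group overlapped with another, although the highest CP_0 library was only just below the lowest of CC. The CP_7 values rest on 5, 10 and 3 reads, with 95% Wilson intervals of 2.77 to 15.2, 5.26 to 17.8 and 1.89 to 16.4 RPM. On the TMM scale miR-18a was at 22.2 ± 1.82 at day 0, 3.90 ± 1.64 at day 7, 12.4 ± 1.51 at day 14 and 41.3 ± 3.20 in chondrocytes (SD, n = 3).

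The miR-19 family was low in RMCs and highest in chondrocytes on either scale. miR-19b had 29.3, 30.8 and 39.3 RPM at day 0, 32.5, 35.9 and 11.1 RPM at day 7, 19.7, 32.1 and 57.2 RPM at day 14 and 113, 97.9 and 95.5 RPM in chondrocytes. The RMC groups overlapped one another, and all 3 CC libraries lay above them. The lowest CP_7 value was made of 6 reads (95% Wilson interval 5.10 to 24.3 RPM), and the 3 CP_14 libraries had 55, 97 and 221 reads. miR-19a followed at a lower level, with 5, 7 and 10 reads at day 0, 2, 3 and 1 at day 7, 9, 4 and 12 at day 14 and 65, 77 and 72 in chondrocytes. In RPM the CC libraries of miR-19a held 6.34 to 7.93, and no RMC library exceeded 3.22.

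miR-92a, the last miRNA of the cluster transcript and one that is also abundant in blood cells, did not follow the others. It was at 492, 417 and 759 RPM at day 0, 1115, 1099 and 1155 RPM at day 7, 845, 695 and 610.4 RPM at day 14 and 516, 541 and 566 RPM in chondrocytes. In RPM the 3 CP_7 libraries were above all others. On the TMM scale it was at 636 ± 217 at day 0, 589 ± 54.8 at day 7, 719 ± 93.5 at day 14 and 899 ± 26.2 in chondrocytes (SD, n = 3), and CP_0 overlapped each of the other groups. The spread within CP_0 came from replicate 3, which had 886 on this scale against a mean of 511 for replicates 1 and 2. miR-92b, made from a separate gene, had 15.8, 18.3 and 15.7 RPM at day 0, 41.6, 13.6 and 7.41 RPM at day 7, 10.0, 5.29 and 4.92 RPM at day 14 and 8.68, 8.44 and 9.63 RPM in chondrocytes. Its 3 CP_7 libraries spread from the highest value of the 12 to a value below those of CC. CP_0 was above CC for miR-92b in every library on both scales, the opposite of the order found for miR-20a.

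The other strand of the miR-17 hairpin, miR-17-3p, had 15 to 27 reads at day 0, 0 to 2 at day 7, 11 to 21 at day 14 and 31 to 46 in chondrocytes. In RPM its group means were 6.16 ± 2.17, 2.10 ± 1.90, 5.17 ± 1.42 and 3.97 ± 0.72 in the same order (SD, n = 3), and all 4 groups overlapped one another. On the TMM scale CP_7 (1.03 ± 0.92) was below the libraries of the other groups, which overlapped. Its library with 0 reads, CP_7 replicate 2, allows up to 2.91 RPM (3 reads). miR-18b and miR-20b, the names particular to the X-linked cluster, had 3 and 6 reads in all 12 libraries together. In CP_7 both were at 0 in every library, which at this depth allows up to 5.56 RPM in the shallowest, so their presence there was not detectable rather than shown to be absent. miR-18b and miR-20b did not pass the filter on low counts (edgeR's filterByExpr, minimum count 10) in any comparison. miR-19a passed it only in CC against CP_14, and miR-17-3p only in the 2 comparisons of CP_14 with CP_0 and of CC with CP_14. The other 6 names were tested in all 4 comparisons.

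The first question was what changed within the first 7 days of induction. No RMCs kept for 7 or 14 days without induction were among the groups. Induction, pellet culture and time in culture therefore cannot be told apart in the comparisons of days. Of the 6 members tested between CP_7 and CP_0, 4 fell and none rose at an adjusted p below 0.05 (limma on log2(TMM-normalized RPM + 1), two-sided, Benjamini-Hochberg over all names tested), where 63.8% of all 246 names tested were called, 28.0% lower and 35.8% higher. On this scale a fold change understates the change of names with few reads. miR-18a fell most, by 2.31 on the log2 scale (standard error, SE, 0.30, limma adjusted p = 4.5e-04). miR-20a fell by 1.05 (SE 0.18, limma adjusted p = 0.0016), miR-17-5p fell by 0.99 (SE 0.14, limma adjusted p = 6.6e-04) and miR-19b fell by 1.48 (SE 0.46, limma adjusted p = 0.025). For each of these 4 no CP_7 library reached a CP_0 library after TMM normalization, while 67.9% of all names tested had no overlap between the groups. The call of miR-19b was lost without CP_0 replicate 2 (limma adjusted p = 0.066) or replicate 3 (limma adjusted p = 0.077). miR-92b was not called (-1.02, SE 0.58, limma adjusted p = 0.17), but without CP_7 replicate 1 it was (-1.82, limma adjusted p = 0.0094). For miR-92a the difference was -0.012 (SE 0.20, limma adjusted p = 0.97), and 0.23 without CP_0 replicate 3 (limma adjusted p = 0.089). The median of the 6 members was -1.03, against 0.075 over all names.

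These falls are relative to the other miRNAs of the library, and the scaling sets the zero line. With library size only, that is, on RPM as deposited, the median change of all names tested was 1.12 at day 7, against 0.075 with TMM. On that scale miR-20a had a log2 fold change of 0.017 and miR-17-5p one of 0.073, neither called, where 61.8% of all names were called higher and 8.13% lower, whereas miR-18a remained lower (-1.34, limma adjusted p = 0.0057) and miR-92a was higher (1.06, limma adjusted p = 0.0029). Both scalings differ by 1 factor per library, so the distance of a name from the median of all names is about the same on either by construction. With TMM that distance was -1.13 for miR-20a, -1.07 for miR-17-5p, -2.38 for miR-18a, -1.56 for miR-19b, -1.09 for miR-92b and -0.087 for miR-92a. Of the 6 members tested, miR-92a alone was thus within 1 log2 unit of the median of all names. The marker lists of other cell types also moved at day 7. The muscle names (miR-1, miR-133a, miR-133b and miR-206) summed to 4536 to 6633 RPM at day 7 against 535 to 683 at day 0. Most of this was miR-1 (4380, 6228 and 4139 RPM in CP_7), while miR-206 had 263, 7 and 0 reads there. The 2 arms of the endothelial miR-126 summed to 188 to 3083 RPM against 47.1 to 63.6. This rise was that of the 3p arm (186, 323 and 3073 RPM in CP_7). The 5p arm overlapped, with 0 to 9.27 RPM in CP_7 (0 to 5 reads) and 2.20 to 4.71 in CP_0. The epithelial names fell, from 27.3 to 38.8 RPM at day 0 to 3.90 to 16.7 RPM at day 7. The part of these marker names in the members' changes was not tested.

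From day 7 to day 14 few members changed. Only miR-18a was called among the 6 tested, at 1.49 on the log2 scale (SE 0.31, limma adjusted p = 0.0057), where 52.8% of all 246 names were called, 24.4% higher and 28.5% lower. The values of the 2 groups did not overlap for 2 members, miR-18a and miR-92a, as for 62.2% of all names. miR-18a was called with each of the 6 libraries left out (1.35 to 1.82), but not with library size only (0.72, limma adjusted p = 0.064), where the median of all names was -0.84. miR-19b moved by 1.30 without passing the test (SE 0.59, limma adjusted p = 0.0999). miR-92a was at 0.20 (SE 0.099, limma adjusted p = 0.12), miR-17-5p at 0.016 (SE 0.23, limma adjusted p = 0.96) and miR-20a at -0.14 (SE 0.24, limma adjusted p = 0.65). With library size only, miR-20a (-1.002), miR-17-5p (-0.84) and miR-92a (-0.66) were all called lower at day 14, where 56.1% of all names were called lower and 10.6% higher, and their distances from the median of all names were -0.17, -0.0049 and 0.18. With upper-quartile factors miR-92a was called as well (0.34, limma adjusted p = 0.023), where 52.0% of all names were called. With all 12 libraries in one fit 3 members were called, where 58.8% of 284 names were. The median of the 6 members was 0.11, against -0.0089 over all names. miR-92b passed the filter only through CP_7, since 2 of its 3 CP_14 libraries were over the filter's minimum level. Over the names that passed in both groups, 1 of 5 members was called. Their median was 0.20, against 0.078 for all 202 such names. Because CP_7 enters both this comparison and the previous one, the values of both rest on shared libraries.

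Over the 14 days together, 4 of the 7 members tested were lower in CP_14 than in CP_0 and none was higher, where 46.0% of all 250 names tested were called, 21.2% lower and 24.8% higher. The values did not overlap for these 4 members, as for 56.4% of all names, and 2 of them changed at least 2-fold, as did 19.2% of all names. miR-20a fell by 1.15 on the log2 scale (SE 0.18, limma adjusted p = 0.0021), miR-17-5p fell by 0.93 (SE 0.19, limma adjusted p = 0.0068), miR-18a fell by 0.77 (SE 0.16, limma adjusted p = 0.0068) and miR-92b fell by 1.39 (SE 0.26, limma adjusted p = 0.0046). The composition factors of these 2 groups were close, so the choice of scale mattered little here: with library size only these were -0.98, -0.77, -0.62 and -1.24, and all 4 were called, where 13.2% of all names were lower and 30.4% higher. Each of the 4 was also called with each of the 6 libraries left out. miR-19b (-0.14, limma adjusted p = 0.78) and miR-17-3p (-0.32, limma adjusted p = 0.44) were not called. For miR-92a the difference was 0.24 (SE 0.21, limma adjusted p = 0.39), and without CP_0 replicate 3 it was called higher at day 14 (0.49, limma adjusted p = 0.0063). The muscle names summed to 1685 to 1756 RPM in CP_14 against 535 to 683 in CP_0, and the red cell names to 3486 to 5167 against 11.8 to 4192, and their part in these differences was not tested. The median log2 fold change of the 7 members was -0.77, against 0.010 over all names tested.

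**Figure D2:**
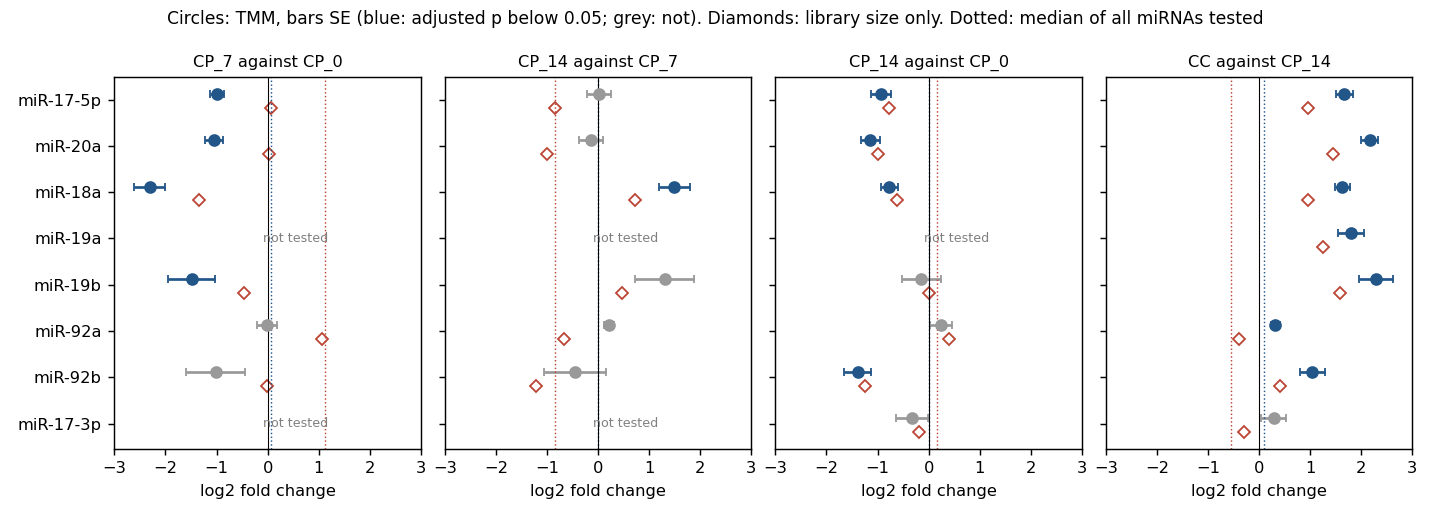
Log2 fold change of 8 names in the 4 comparisons. Circles with SE bars are the fits with TMM (blue where adjusted p was below 0.05, grey where not), diamonds the values with library size only, and dotted lines the median of all miRNAs tested on each scale. Between CC and CP_14 the circles of 7 names are called higher, and in CP_7 against CP_0 the diamonds and their median are shifted to the right of the circles by a similar amount.

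The last comparison set antler chondrocytes beside RMCs at day 14 of induction. Of the 8 members tested, 7 were higher in CC and none lower. miR-19a passed the filter only through CC, where it is high, since 2 of its 3 CP_14 libraries were over the filter's minimum level, and without it 6 of 7 were higher. Of all 276 names tested, 74.6% were called, 37.7% higher and 37.0% lower. The largest differences were those of miR-19b (2.29 on the log2 scale, SE 0.33, limma adjusted p = 1.7e-04) and miR-20a (2.16, SE 0.16, limma adjusted p = 2.3e-06). That of miR-19a was 1.801 (SE 0.26, limma adjusted p = 1.8e-04), that of miR-17-5p 1.67 (SE 0.17, limma adjusted p = 1.4e-05) and that of miR-18a 1.63 (SE 0.15, limma adjusted p = 8.9e-06). These 5 names were also higher and called with library size only (0.96 to 1.59), where 14.5% of all names were higher and 59.1% lower, although the median of all names was then -0.54. Smaller differences were found for miR-92b (1.04, SE 0.24, limma adjusted p = 0.0032) and miR-92a (0.32, SE 0.087, limma adjusted p = 0.0084). That of miR-92a had the opposite sign with library size only (-0.39, called lower) and that of miR-92b was then not called (0.41, limma adjusted p = 0.17). With all 12 libraries in one fit neither miR-92a (0.33, limma adjusted p = 0.15) nor miR-92b (1.08, limma adjusted p = 0.061) was called, which left 5 members. miR-17-3p was not called (0.28, limma adjusted p = 0.29). The values of CC and CP_14 did not overlap for the 7 called members, as for 78.6% of all names tested. The median of the 8 members was 1.65, against 0.086 over all names. Over the names that passed the filter in both groups it was 1.63 for the 7 members, without miR-19a, against 0.19 for all 222. The muscle names stood at 719 to 752 RPM in CC against 1685 to 1756 in CP_14 and the red cell names at 1387 to 1460 against 3486 to 5167, and their part was not tested. Chondrocytes and RMCs at day 14 differ in the cells they were taken from and in the induction, and these cannot be told apart. Nor can bulk RNA separate fewer cells that carry a miRNA from less of it per cell.

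The ratio of 2 members within a library does not depend on the scaling factor. For 7 ratios of reads, 0.5 read was added to each count and the log2 ratio was compared across the 4 groups by an exact permutation test over all 369600 arrangements of the 12 libraries, with Benjamini-Hochberg adjustment over the 7. The p measures any difference among the 4 groups. The order of groups given with a ratio was read from the values and was not itself tested. For names with few reads the added 0.5 read makes the ratio depend on depth as well. This holds above all for miR-19a (1 to 3 reads in each CP_7 library) and miR-17-3p (0 to 2 reads), and less for miR-18a (3 to 10 reads). miR-92a, miR-19b and miR-20a are cut from the same transcript, but the X-linked cluster carries copies of miR-92a and miR-19b as well. Reads of these names could come from either cluster, and their source was not tested. The ratio of miR-92a to miR-20a was 1.30, 1 and 2.03 at day 0, 2.58, 2.54 and 3.51 at day 7, 4.95, 3.91 and 2.44 at day 14 and 0.92, 1.01 and 1.09 in chondrocytes. It was higher in every CP_7 and CP_14 library than in any of CP_0 and CC (exact permutation p = 0.0021, adjusted p = 0.0073), and without CP_0 replicate 3 the adjusted p was 0.0082 (exact permutation). The ratio of miR-18a to miR-20a fell to 0.017, 0.023 and 0.020 in CP_7, below all 9 other libraries, which ranged from 0.042 to 0.070 (exact permutation p = 0.0018, adjusted p = 0.0073). The ratio of miR-19b to miR-20a was 0.078, 0.074 and 0.105 at day 0, 0.077, 0.084 and 0.037 at day 7, 0.116, 0.181 and 0.229 at day 14 and 0.202, 0.183 and 0.183 in chondrocytes. It was thus higher in every CP_14 and CC library than in the 6 others (exact permutation p = 0.0043, adjusted p = 0.010). These 3 ratios passed the test with each of the 12 libraries left out in turn.

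The other 4 ratios were less stable. miR-19a to miR-20a had mean ratios of 0.0057 at day 0, 0.0079 at day 7, 0.014 at day 14 and 0.013 in chondrocytes (exact permutation adjusted p = 0.020), and passed in 10 of the 12 sets with 1 library left out, the exceptions being CP_0 replicate 1 (adjusted p = 0.057, exact permutation) and CP_0 replicate 2 (adjusted p = 0.051, exact permutation). The ratio of the strands, miR-17-3p to miR-17-5p, passed with all libraries (exact permutation adjusted p = 0.031) but in only 4 of the 12 sets with 1 library left out, where the adjusted p ran from 0.013 to 0.128 (exact permutation); it rests on 0 to 2 reads in each CP_7 library. miR-17-5p to miR-20a, the 2 names with a common seed and transcript, did not pass (exact permutation adjusted p = 0.22): its mean was 0.346 at day 0, 0.371 at day 7, 0.404 at day 14 and 0.286 in chondrocytes, and it passed only without CP_7 replicate 3 (adjusted p = 0.029, exact permutation). miR-92b to miR-92a did not pass either (exact permutation adjusted p = 0.10), except without CP_7 replicate 1 (adjusted p = 0.011, exact permutation) or CP_7 replicate 3 (adjusted p = 0.034, exact permutation).

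**Figure D3:**
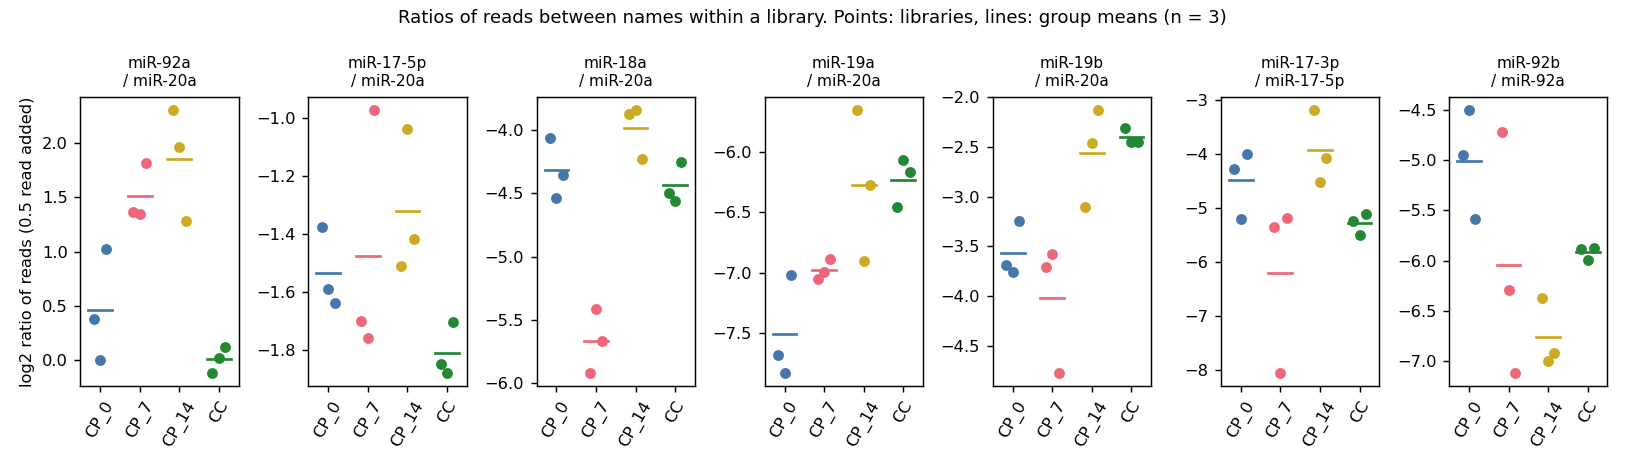
Log2 ratio of the reads of 2 names in the same library, with 0.5 read added to each, for 7 ratios in the 4 groups; points are libraries and lines group means (n = 3). The ratio of miR-92a to miR-20a is highest in CP_7 and CP_14, that of miR-18a to miR-20a is lowest in CP_7, and that of miR-19b to miR-20a is higher in CP_14 and CC than in CP_0 and CP_7.

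The behaviour of miR-92a was set beside the red blood cell markers, since the 2 moved together in part. In CP_0 replicate 3, miR-451 had 6933 reads against 27 and 29 in replicates 1 and 2, and miR-486 had 8312 against 7 and 20. In the same library miR-92a was 1.67 times its mean in the other 2 (759 against 455 RPM), miR-25 was 1.34 times (511 against 381 RPM) and miR-363 had 30 reads against 0 and 0. The other members were divided. miR-20a was 0.94 times, miR-17-5p 0.85 times, miR-18a 0.90 times and miR-92b 0.92 times its mean there. miR-19b was 1.31 times, miR-17-3p 1.34 times and miR-19a 1.62 times its mean, the last 2 on few reads. miR-191, which is not on the list of 3 red blood cell names used here, was 1.42 times its mean. Whether miR-191 also comes from blood cells was not tested. In RPM, miR-451 was at 1906 in that library, 1581 to 2304 in CP_14, 614 to 648 in CC and 3.71 to 16.5 in CP_7. The miR-92a to miR-20a ratio was high in CP_14, where these markers were highest, high in CP_7, where they were low, and low in CC, where they lay between. The part of the markers in the ratio was not tested. The white blood cell names (miR-223, both arms of miR-142 and miR-150) summed to 22.0 to 35.4 RPM in CP_14, 7.42 to 8.77 in CC, 1.30 to 17.4 in CP_7 and 2.20 to 31.3 in CP_0.

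**Figure D4:**
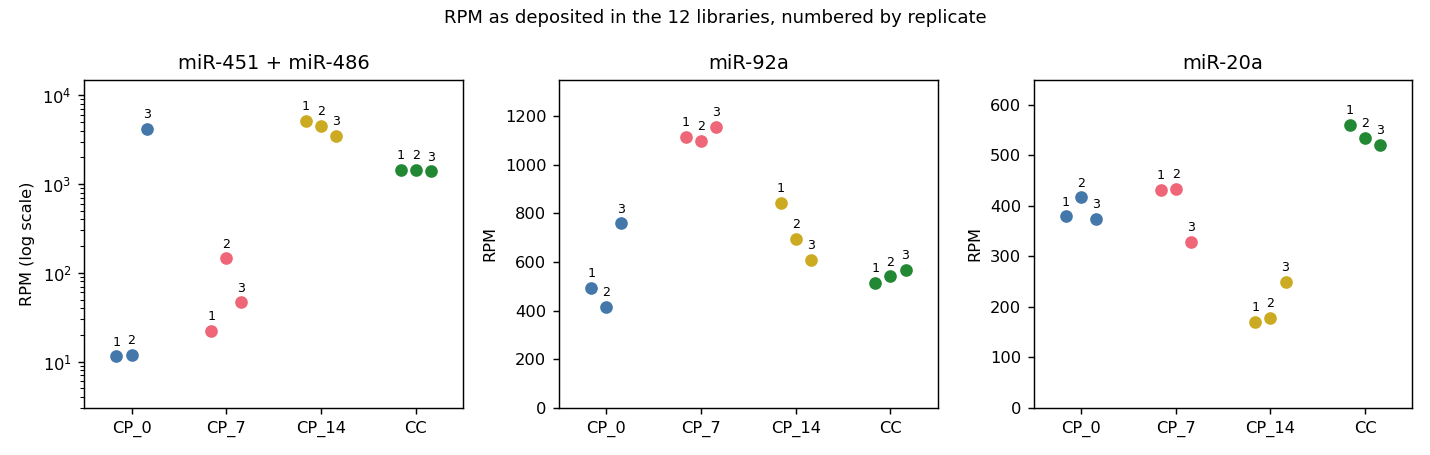
Deposited RPM of the summed red cell markers miR-451 and miR-486 (log axis), of miR-92a and of miR-20a in the 12 libraries, numbered by replicate. CP_0 replicate 3 stands with CP_14 for the markers and above replicates 1 and 2 for miR-92a (759 against 492 and 417 RPM), but not for miR-20a (374 against 379 and 417 RPM).

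The paralogous clusters and the remaining seed relatives gave 6 listed names, miR-106a, miR-106b, miR-93, miR-25, miR-363 and miR-32. From CP_0 to CP_7, 3 of the 3 tested fell (median -1.07, against 0.075 for all names), where 63.8% of all names tested were called and 28.0% were lower. From CP_7 to CP_14, 2 of 4 were higher, where 52.8% of all names were called and 24.4% were higher. One of these was miR-363, with 0, 1 and 0 reads in CP_7, which was tested only because it was high in CP_14, and without it 1 of 3 was higher. From CP_0 to CP_14, 2 of 4 fell, where 46.0% of all names were called and 21.2% were lower. miR-363 passed the filter there only through CP_14, and without it 2 of 3 fell. In CC against CP_14, 3 of 4 were higher and 1 lower, where 74.6% were called, 37.7% higher and 37.0% lower. miR-93, which has the seed of miR-17 but lies in the miR-106b cluster, fell by 1.23 (SE 0.21, limma adjusted p = 0.0015) at day 7 and in CC stood 2.31 above CP_14 (SE 0.11, limma adjusted p = 2.6e-07). miR-106b fell by 1.07 (SE 0.18, limma adjusted p = 0.0014) and was higher in CC by 1.33 (SE 0.12, limma adjusted p = 5.8e-06). miR-25, which shares the seed of miR-92a and the transcript of miR-93, changed less, at day 7 by -0.46 (limma adjusted p = 0.019) and 0.35 in CC against CP_14 (limma adjusted p = 0.0026). With TMM, the name with the miR-92 seed in both clusters (miR-92a, miR-25) thus had smaller differences at day 7 and in CC against CP_14 than the names with the miR-17 seed. With library size only the order at day 7 was the reverse for miR-92a (1.06) against miR-20a (0.017) and miR-17-5p (0.073). Other names with the miR-92 seed did not share this: miR-92b was at -1.02 at day 7, close to miR-20a (-1.05), and miR-363 was lower in CC than in CP_14 (-0.94). The difference between seeds was not itself tested. miR-363 had 30 of its 31 CP_0 and CP_7 reads in CP_0 replicate 3, and 21 to 40 reads in each CP_14 and CC library. miR-106a and miR-32 had 20 and 1 reads in all.

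Among the 101 names outside the rule with a mean of at least 100 RPM, those most like miR-20a over the 12 libraries, by Pearson's r on log2(TMM-normalized RPM + 1), were miR-93 (0.99), miR-30e-5p (0.98), miR-125b (0.97), miR-574 (0.91) and miR-660 (0.89). Those most like miR-92a were miR-191 (0.87), miR-486 (0.86), miR-25 (0.82), miR-451 (0.82) and miR-574 (0.65). Of these names, miR-574 alone was in both sets of 5. These are descriptions over 12 libraries in 4 groups that share their composition factors, so a common factor enters every r.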

How the data were processed

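The 12 small RNA libraries were prepared with a NEBNext kit from total RNA and sequenced on an Illumina NovaSeq instrument. The submitters' processing notes name CASAVA, bcl2fastq 1.8.4 and Bowtie, and for the trimming, the counting, the genome build and the release of the miRNA database no source used here gives a name. The deposited values are RPM, although the headers say tpm: each library summed to 1000000 and 100% of its values were whole multiples of 1 read within 0.01 read. The deer reads carry cattle (bta-) names, and no sequence was used here. Names with low counts were removed by filterByExpr (minimum count 10, minimum total 15), after TMM factors had been computed on all 545 names. limma 3.58.1 with an intensity trend was run on log2(TMM-normalized RPM + 1) for each pair of groups on its own 6 libraries, in R 4.3.3 with edgeR 4.0.16. Alternatives were library size only, upper-quartile or RLE factors, edgeR's quasi-likelihood test and DESeq2 1.42.0 on recovered reads, no filter, pseudocounts of 0.5 and 5 RPM, all 12 libraries in one fit, a replicate block, miR-21-5p left out, at least 2-fold, and each library left out. The scripts were tested on simulated data. No 2 libraries of a group were copies (chi-square per degree of freedom at least 4.92). Members averaging 100 reads or more in any group (miR-17-5p, miR-18a, miR-19b, miR-20a and miR-92a) were named with every library, and the others by ranges and counts; the library values of miR-92b and miR-19a were added after they were seen. The members and lists were chosen with earlier results of these data known. No pairing by replicate number was seen: the 12 correlations of same-numbered deviations ran from -0.29 to 0.13, and 1 exceeded 0.1. With so few libraries in a group, this cannot show that same-numbered libraries do not share an animal or batch.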

Additional observations from a re-analysis of the deposited data

How the results depend on the processing

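The number of members called was 4, 1, 4 and 7 in CP_7 against CP_0, CP_14 against CP_7, CP_14 against CP_0 and CC against CP_14. It was the same with the replicate block, and the block changed no call of a single member. With library size only the first was 2 and the second 3, all 3 of them lower. For CP_14 against CP_7 it was 2 with upper-quartile factors and 3 with all 12 libraries in one fit, and for CP_14 against CP_0 it was 2 with at least 2-fold. For CC against CP_14 it was 5 with all 12 libraries in one fit, and 6, of which 5 higher and 1 lower, with library size only. With 1 library left out the counts ran from 3 to 6, 1 to 2, 4 to 5 and 7 to 7 in the same order; the second was 2 without CP_7 replicate 1, 2 or 3. Of the values of single members under alternatives, 430 kept direction and call, 5 gained the call, 7 lost it and 17 changed sign. With library size only the sign changed at day 7 for miR-17-5p (0.073), miR-20a (0.017) and miR-92a (1.06), from day 7 to day 14 for miR-17-5p (-0.84) and miR-92a (-0.66), over 14 days for miR-19b (0.013) and in CC against CP_14 for miR-17-3p (-0.30) and miR-92a (-0.39); the median of all names moves by construction. Other sign changes were in values that were not called on either side. They were miR-92a over 14 days with upper-quartile factors (-0.015), miR-19b over 14 days with edgeR (0.0060), and values with 1 library left out. The ranges of the latter were -0.27 to 0.23 for miR-92a at day 7 (positive without CP_0 replicate 3) and -0.60 to 0.21 for miR-19b over 14 days (positive without CP_14 replicate 1). From day 7 to day 14 they were -0.17 to 0.25 for miR-17-5p, -0.37 to 0.097 for miR-20a and -0.94 to 0.23 for miR-92b. Of the 7 ratios, 5 passed with all libraries and 3 to 7 with 1 left out, 3 without CP_0 replicate 1. The members' share of reads without miR-21-5p was 0.292%, 0.224% and 0.206% at day 0, 7 and 14 and 0.559% in chondrocytes. The CP_7 libraries are the shallowest, and miR-18a, miR-19a and miR-17-3p rest there on at most 10 reads each.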
